A study of Homo sapiens with 7 samples.

Results

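SW1990 is an established human pancreatic cancer cell line. The data described here are the H3K4me1 peak lists of SW1990 cells around 9 genes for integrins and for the matrix protein laminin-332, namely ITGA2, ITGA3, ITGA6, ITGAV, ITGB1, ITGB4, ITGB6, LAMA3 and LAMB3. The genes were chosen as a family, and each was given a window of its GENCODE v44 gene body plus 50 kb on either side. The 9 genes are a part of 20033 protein-coding genes, and their windows spanned 1770 kb. They held 112 of 64843 intervals in the control list (0.173%) and 167 of 92135 intervals in the knockdown list (0.181%). An interval is a stretch of the hg38 genome called by the authors as enriched relative to input DNA.

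The control cells (NC) carried a negative control shRNA, and the KMT2D-KD cells carried an shRNA against KMT2D, a methyltransferase that places H3K4me1, the monomethyl mark on lysine 4 of histone H3. The labels do not say whether the knockdown cells were a pool or a clone. Each condition had 1 H3K4me1 library, both called against 1 SW1990 input whose condition the labels do not give. Every difference below therefore compares 2 libraries, has no replicate check and carries no p-value. Intervals after a count or share are 95% exact binomial intervals and cover counting error only. Depth was recovered from the lists with the usual formulas of the peak caller, and was not compared with read totals. It came to 9.29 fragments per kb in KMT2D-KD and 9.89 in NC. The level of KMT2D itself cannot be read from peak lists. Windows of the same kind at 6 ductal epithelial marker genes held 134 NC and 167 KMT2D-KD intervals, led by KRT7 with 47 and 51. At 6 blood and endothelial genes they held 34 and 65. All 6 genes of either set had more in KMT2D-KD, as did 86.1% of the 10753 protein-coding genes with at least 5 intervals in 1 condition. Peak lists record a mark on chromatin and not expression, so they do not settle which cell types were present, and in bulk cells a mark on fewer cells and less of it per cell cannot be told apart.

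Integrins are receptors made of an alpha and a beta chain that tie the cell to its surrounding matrix. In epithelia, laminin-332, which contains an alpha chain (LAMA3) and a beta chain (LAMB3), is laid down in the basement membrane. ITGA6 with ITGB4 holds it in hemidesmosomes, the anchors that link keratin filaments to the basement membrane, and ITGA3 with ITGB1 binds it at other adhesions. ITGA2 with ITGB1 binds collagen and laminin, and ITGAV pairs with several beta chains, ITGB6 among them, to bind RGD ligands and the latent form of TGF-beta. H3K4me1 is known for marking enhancers, often in introns or far from the gene start, and for flanking active promoters.

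Sequences are shown first for places where the lists draw the same stretch differently. Of the KMT2D-KD intervals that ran across more than 1 NC interval, 3 of the 4 with the narrowest gap are printed with 25 bases on either side. Capitals mark bases inside NC intervals, and lower case marks the gap that was covered in KMT2D-KD but not in NC. All are on the plus strand of hg38, none overlaps an annotated UTR, and the LAMB3 and ITGA6 gaps are intronic while the ITGB4 gap lies upstream in the neighbouring gene SAP30BP.
LAMB3 chr1:209649317-209649557: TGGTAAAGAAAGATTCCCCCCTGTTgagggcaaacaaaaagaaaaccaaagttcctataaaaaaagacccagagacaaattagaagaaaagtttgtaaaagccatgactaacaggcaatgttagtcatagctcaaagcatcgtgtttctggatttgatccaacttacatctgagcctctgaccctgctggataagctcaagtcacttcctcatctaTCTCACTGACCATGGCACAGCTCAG
ITGB4 chr17:75681469-75681709: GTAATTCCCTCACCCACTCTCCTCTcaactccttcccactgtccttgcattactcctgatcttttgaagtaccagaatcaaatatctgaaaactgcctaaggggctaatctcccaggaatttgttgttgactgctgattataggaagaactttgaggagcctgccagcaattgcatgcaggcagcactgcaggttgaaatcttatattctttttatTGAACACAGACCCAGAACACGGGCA
ITGA6 chr2:172438587-172438856: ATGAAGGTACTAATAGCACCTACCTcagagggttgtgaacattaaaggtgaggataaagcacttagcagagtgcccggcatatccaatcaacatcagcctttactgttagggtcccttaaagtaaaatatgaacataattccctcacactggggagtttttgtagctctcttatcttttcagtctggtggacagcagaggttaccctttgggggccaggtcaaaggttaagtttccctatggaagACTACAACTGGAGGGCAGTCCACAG
These stretches are short. The gaps measured 191 bases at LAMB3 and ITGB4 and 220 at ITGA6, about the width of the narrowest intervals in these windows, at 191 bases (NC) and 178 bases (KMT2D-KD).

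The next 2 windows are the 150 bases around a summit, the point of highest enrichment within an interval. They show the member interval with the highest −log10 q in KMT2D-KD, a site upstream of ITGB4, and an interval beside an inner transcript start of LAMA3 that only the KMT2D-KD list held. Capitals mark a match to any of the 6 motifs searched, which are described with the sequence results.
ITGB4 upstream, KMT2D-KD, chr17:75699522-75699671: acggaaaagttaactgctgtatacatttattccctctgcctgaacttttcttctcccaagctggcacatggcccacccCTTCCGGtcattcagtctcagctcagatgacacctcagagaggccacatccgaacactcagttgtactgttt
LAMA3 inner start, KMT2D-KD, chr18:23872278-23872427: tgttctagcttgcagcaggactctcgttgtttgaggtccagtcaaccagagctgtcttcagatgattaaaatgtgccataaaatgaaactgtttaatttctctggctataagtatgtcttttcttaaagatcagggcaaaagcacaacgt

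To examine H3K4me1 across the adhesion genes as a group, intervals and the bases under them were counted in the 9 windows. NC had 112 intervals in the windows and KMT2D-KD had 167, for a log2(KMT2D-KD/NC) of 0.58 (0.22 to 0.93), or 1.49 times as many. The intervals covered 57045 bases in NC (3.22% of the windows) and 102976 bases in KMT2D-KD (5.82%), which is 1.81 times as much. Over the whole lists the number was higher by a log2 ratio of 0.51 (0.49 to 0.52) and the covered bases were 1.54 times as many. The difference in interval number around the adhesion genes was thus within counting error of the difference seen genome-wide. When both lists were cut to equal length by −log10 q, 112 NC and 127 KMT2D-KD intervals were left (0.18, −0.20 to 0.56), and with intervals within 1000 bases merged the ratio was 0.46 (−0.01 to 0.94). Both of these counting intervals held 0. The median log2 ratio per gene was 0.65 over the 9 members and 0.68 over the 10609 genes with a finite ratio, and for covered bases it was 0.73 and 0.84.

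**Figure D1:**
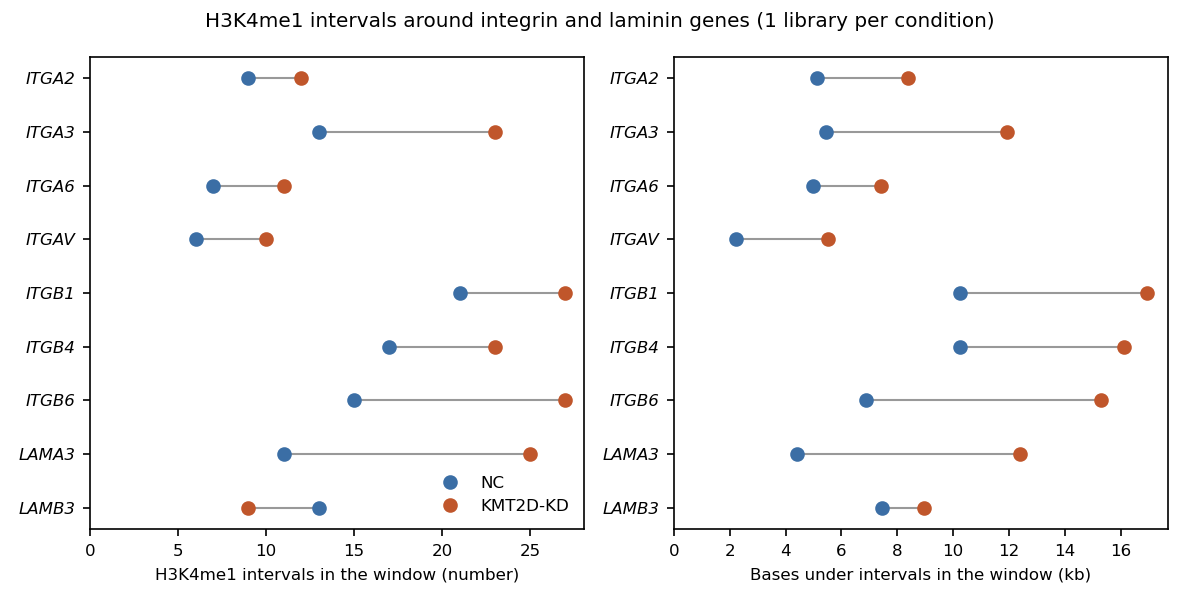
Number of H3K4me1 intervals (left, horizontal axis) and kilobases under them (right, horizontal axis) in the window of each gene, with NC in blue and KMT2D-KD in orange, 1 library each. KMT2D-KD lies to the right of NC for 8 of 9 genes by number and for 9 of 9 by covered bases, and LAMB3 is the gene where the order by number is turned round.

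KMT2D-KD had the larger number of intervals at 8 of 9 members, against 86.1% of 10753 genes with at least 5 intervals in 1 condition. In lists of equal length it did so at 6 of 9, against 54.9% of genes. Covered bases were higher in KMT2D-KD for 9 of 9, against 93.6% of those genes. At least 2-fold more intervals in KMT2D-KD were found at 1 of 9 members, LAMA3, against 36.6% of genes, and at least 2-fold more in NC at 0 of 9, against 0.772%. All of these counts are near or below the background, so they single out nothing particular about the group.

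**Figure D2:**
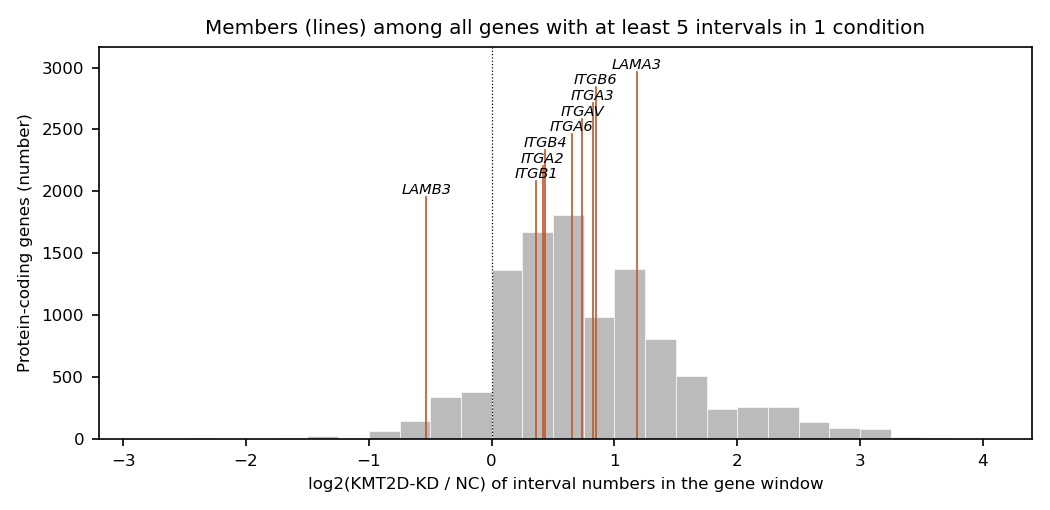
Histogram of log2(KMT2D-KD/NC) of interval numbers over protein-coding genes (horizontal axis) by number of genes (vertical axis), with each member marked by an orange line. Members run from −0.53 at LAMB3 to 1.18 at LAMA3, and the other 7 sit between 0.36 and 0.85, inside the main body of the distribution.

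The members that encode integrin alpha chains are taken first. ITGA3, the alpha chain of a laminin-332 receptor, lies at chr17:50055968-50090481 and had 13 NC intervals over 5454 bases and 23 KMT2D-KD intervals over 11917 bases (log2 ratio 0.82, −0.22 to 1.93). Most were packed around its 5′ end, and a stretch of 20 kb there held 9 NC and 14 KMT2D-KD intervals. The strongest NC interval of all 9 windows was in its intron 3, 9.66 kb from the 5′ end, with 8.43-fold enrichment, a −log10 q of 14.3 and 25 fragments at the summit. That place was 1 of the minority that read lower in KMT2D-KD, at 6.79-fold and 19 fragments. Nearby in intron 1, at 3.78 kb, the KMT2D-KD interval reached 7.97-fold, against 5.62-fold at the stronger of its NC counterparts. Of the KMT2D-KD intervals at ITGA3, 12 of 23 overlapped no NC interval, against 1 of 13 the other way.

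ITGA6, the alpha chain of the hemidesmosome receptor (chr2:172427354-172506459), had 7 NC intervals over 4988 bases and 11 KMT2D-KD intervals over 7400 bases (log2 ratio 0.65, −0.85 to 2.26). All 11 KMT2D-KD intervals and 5 of 7 NC intervals had their summits in its intron 1. They lay from 2.95 to 27.6 kb past the 5′ end in KMT2D-KD and from 11.1 to 20.1 kb in NC. The strongest KMT2D-KD interval (chr2:172439533-172440371, 6.07-fold, −log10 q 7.44, 15 fragments) had no counterpart in NC. It filled a space between NC intervals with summits at 11.6 and 13.4 kb. The strongest NC interval, at 20.1 kb, read 5.27-fold in NC and 5.31-fold in KMT2D-KD.

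ITGA2, the alpha chain of a collagen receptor (chr5:52989340-53094779), had 9 NC intervals over 5131 bases and 12 KMT2D-KD intervals over 8386 bases (log2 ratio 0.42, −0.96 to 1.84). In both lists the strongest interval was in intron 2, 49.5 kb from the 5′ end, at 6.29-fold with 19 fragments in NC and 7.78-fold with 22 fragments in KMT2D-KD. ITGA2 was also the 1 member with a promoter interval in KMT2D-KD alone, meaning one within 1000 bases of the 5′ end of the gene record. Its KMT2D-KD interval chr5:52987382-52988752 was 1371 bases wide and ended 588 bases from the start, while the NC interval at the same place was 351 bases wide and ended 1611 bases away. Their enrichments were 4.22-fold and 4.21-fold, read at different summits, and the KMT2D-KD summit lay outside the NC interval.

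ITGAV, the alpha chain shared by the RGD-binding integrins (chr2:186590010-186680901), had the fewest NC intervals of the members, 6 over 2226 bases, against 10 KMT2D-KD intervals over 5532 bases (log2 ratio 0.74, −0.87 to 2.48). A single NC interval lay in the gene, in intron 1 at 8.79 kb, and the other 5 lay 14.2 to 45.3 kb upstream. At the intron 1 site NC read 5.27-fold from 14 fragments and KMT2D-KD read 5.31-fold from 13 fragments, so the slightly higher fold came from fewer fragments. By −log10 q (6.38) the strongest KMT2D-KD interval at ITGAV was in the upstream group, at 45.3 kb, with 5.13-fold against 3.86-fold in NC. The highest KMT2D-KD fold was 5.31, read at the intron 1 site and also 19.4 kb upstream.

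**Figure D3:**
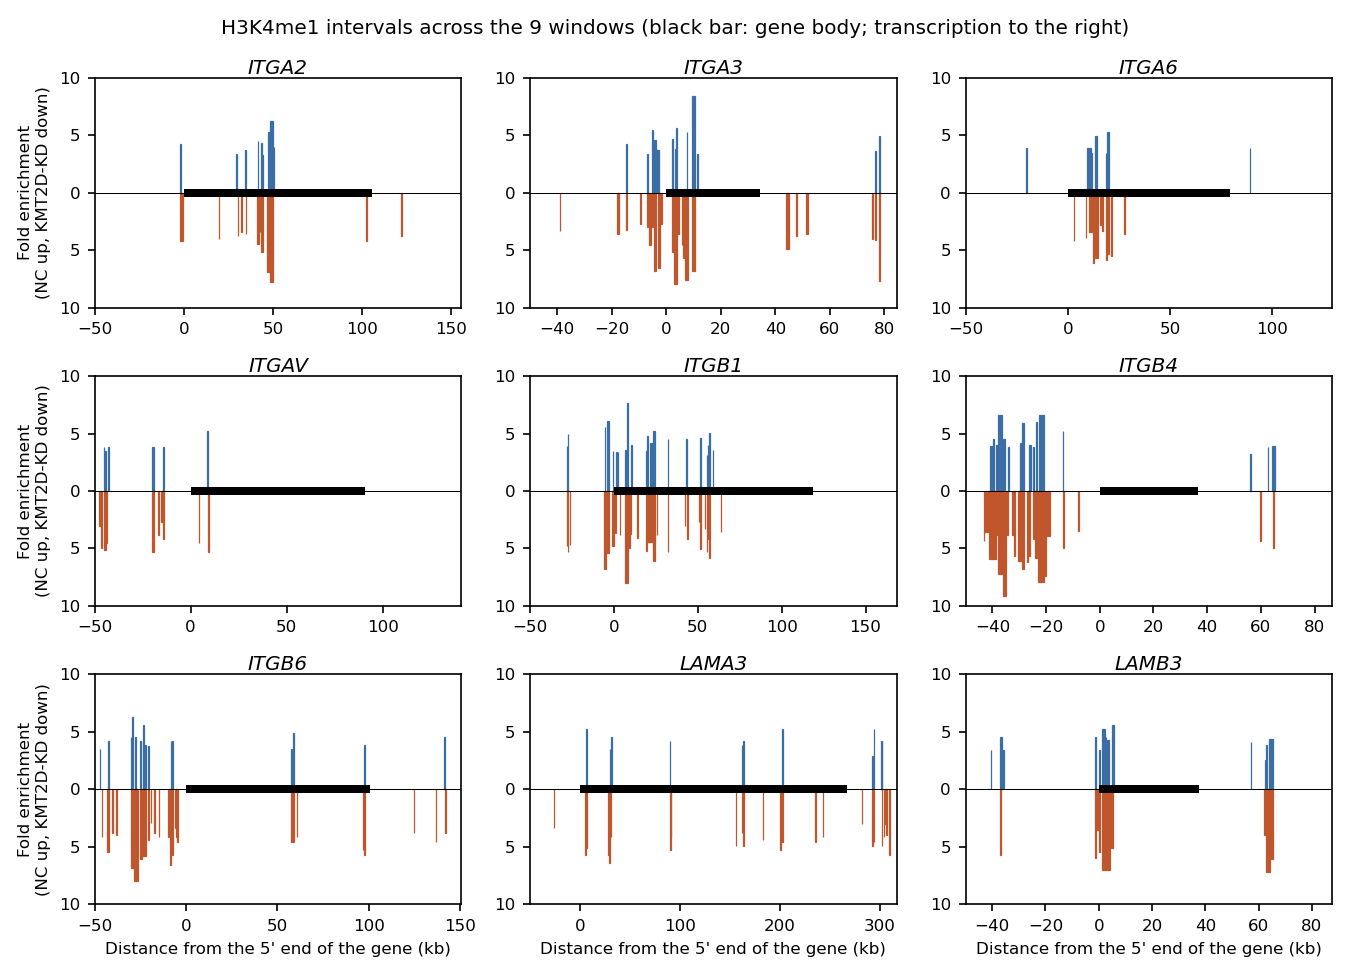
Each panel shows 1 gene window, with distance from the 5′ end in kb (horizontal axis, transcription to the right) and fold enrichment of each interval (vertical axis, NC upward in blue, KMT2D-KD downward in orange), the black bar being the gene body. Intervals gather upstream of ITGB4 and ITGB6, in the 5′ part of ITGA3, ITGA6, ITGB1 and LAMB3, and are spread along LAMA3.

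Of the beta chains, ITGB1, which pairs with many alpha chains, had the most intervals in NC, 21 over 10256 bases, against 27 KMT2D-KD intervals over 16957 bases (log2 ratio 0.36, −0.51 to 1.26). Its gene record (chr10:32887273-33005792, minus strand) begins 47562 bases before the start of the canonical transcript, and many intervals lay in that stretch. The strongest in both lists was 8.23 kb inside the record in NC and 8.11 kb in KMT2D-KD, at 7.71-fold and 8.03-fold with 21 fragments in each. An NC interval of 1636 bases with its summit at 21.8 kb, and a neighbour of 485 bases at 20.4 kb, were covered by 1 KMT2D-KD interval of 3126 bases. ITGB1 had promoter intervals at its record start in both lists, 1 in NC and 2 in KMT2D-KD, but 0 of either list lay within 1000 bases of its canonical start, where the nearest were 3676 and 3070 bases away.

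ITGB4, the beta chain of the hemidesmosome receptor (chr17:75721328-75757818), had 17 NC intervals over 10241 bases and 23 KMT2D-KD intervals over 16103 bases (log2 ratio 0.44, −0.53 to 1.43). None of them had its summit in the ITGB4 gene body, in either list. The summits of 13 NC and 20 KMT2D-KD intervals lay in SAP30BP, the neighbouring gene upstream, and a stretch of 20 kb there held 12 and 16. The strongest KMT2D-KD interval of all 9 windows was among them (chr17:75698320-75700440), 21.7 kb upstream, with 7.96-fold enrichment, a −log10 q of 16.4 and 30 fragments. At the same place NC read 6.63-fold with 22 fragments. The highest fold, 9.13 in KMT2D-KD, was 35.8 kb upstream, where NC read 4.56. Another strong site, 20.2 kb upstream (chr17:75700821-75701285, 7.38-fold, −log10 q 11.2, 20 fragments), was held by KMT2D-KD alone and had the highest −log10 q of the unshared intervals in either list. The windows do not say whether these sites act on ITGB4 or on SAP30BP.

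ITGB6, the epithelial partner of ITGAV (chr2:160099667-160200313, minus strand), had 15 NC intervals over 6895 bases and 27 KMT2D-KD intervals over 15299 bases (log2 ratio 0.85, −0.11 to 1.86). Upstream of the gene lay 11 of 15 NC intervals and 19 of 27 KMT2D-KD intervals, from 7.48 to 47.3 kb and from 4.50 to 45.9 kb. The strongest KMT2D-KD interval (chr2:160226507-160228613) was 27.5 kb upstream and 2107 bases wide, at 7.97-fold with 20 fragments. Its NC counterpart was 748 bases wide, at 4.56-fold with 12 fragments. The strongest NC interval, 29.2 kb upstream, read 6.32-fold with 17 fragments in NC and 6.83-fold with 17 fragments in KMT2D-KD. ITGB6 had the most unshared KMT2D-KD intervals of the members, 16 of 27, and 3 of 15 in NC.

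The laminin chains lay at the extremes of the group. LAMA3 (chr18:23689453-23956222), the alpha chain, had 11 NC intervals over 4406 bases and 25 KMT2D-KD intervals over 12410 bases. Its log2 ratio of 1.18 (0.11 to 2.36) was the highest of the 9 and the only one whose counting interval excluded 0. Among genes with at least 5 intervals in 1 condition, 36.6% had at least 2-fold more in KMT2D-KD. With lists of equal length, or with flanks ended at the next coding gene, LAMA3 had 11 and 21 intervals, below 2-fold, and the counting interval of its log2 ratio of 0.93 held 0. The intervals were spread along the gene, 7 in the body in NC and 16 in KMT2D-KD, with 4 and 8 downstream. Of the KMT2D-KD intervals, 15 of 25 were unshared, among them an interval of 1544 bases in intron 1 (chr18:23693896-23695439, 5.69-fold, 14 fragments) and 4 in TTC39C, the next gene downstream, where NC had none. The strongest KMT2D-KD interval, in intron 2 at 29.8 kb, read 6.45-fold with 16 fragments, against 3.51-fold with 9 fragments in NC.

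LAMA3 makes a long and a short product from different starts, and the short one is the chain of laminin-332. Near the annotated inner start at position 23873020, KMT2D-KD had the interval whose sequence is given above (chr18:23872291-23872675), in intron 38, 345 bases from the start. It read 4.38-fold with a −log10 q of 4.02 and 11 fragments, and its −log10 q was the median of the list. No NC interval overlapped it. Neither list had an interval within 1000 bases of the outer 5′ end, where the nearest were 6248 bases away in NC and 4443 in KMT2D-KD.

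LAMB3 (chr1:209614870-209652425, minus strand), the beta chain, was the member with fewer intervals in KMT2D-KD, 9 against 13 in NC, and the counting interval of its log2 ratio of −0.53 (−1.94 to 0.81) held 0. The bases under them went the other way, 7448 in NC and 8972 in KMT2D-KD. Its window also held the widest interval of the 9 windows, a KMT2D-KD interval of 3198 bases (chr1:209648112-209651309). It overlapped 3 NC intervals of 1111, 332 and 767 bases in introns 2 and 3, separated by gaps of 353 and 191 bases. It read 7.07-fold, against 5.27, 4.56 and 4.32 in those 3. The order by number turned with the threshold, with 4 NC and 7 KMT2D-KD intervals left by a −log10 q limit of 5, and 2 and 7 by a fold limit of 5 (log2 ratios 0.81 and 1.81). With intervals within 1000 bases of each other merged first, LAMB3 had 6 NC and 3 KMT2D-KD intervals. It was then the 1 member with at least 2-fold more in NC, against 0.799% of genes with at least 5 intervals in 1 condition. At the places both lists held, the KMT2D-KD fold was higher for 9 of 10 NC intervals and the KMT2D-KD interval was wider for 10 of 10, and the median log2 fold difference of 0.64 was the highest of the 9 members. Those 10 NC intervals faced 8 KMT2D-KD intervals, so a wide one was counted more than once. Over the 5 places with 1 interval in each list the median was 0.40, below the 0.41 of ITGB6.

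**Figure D4:**
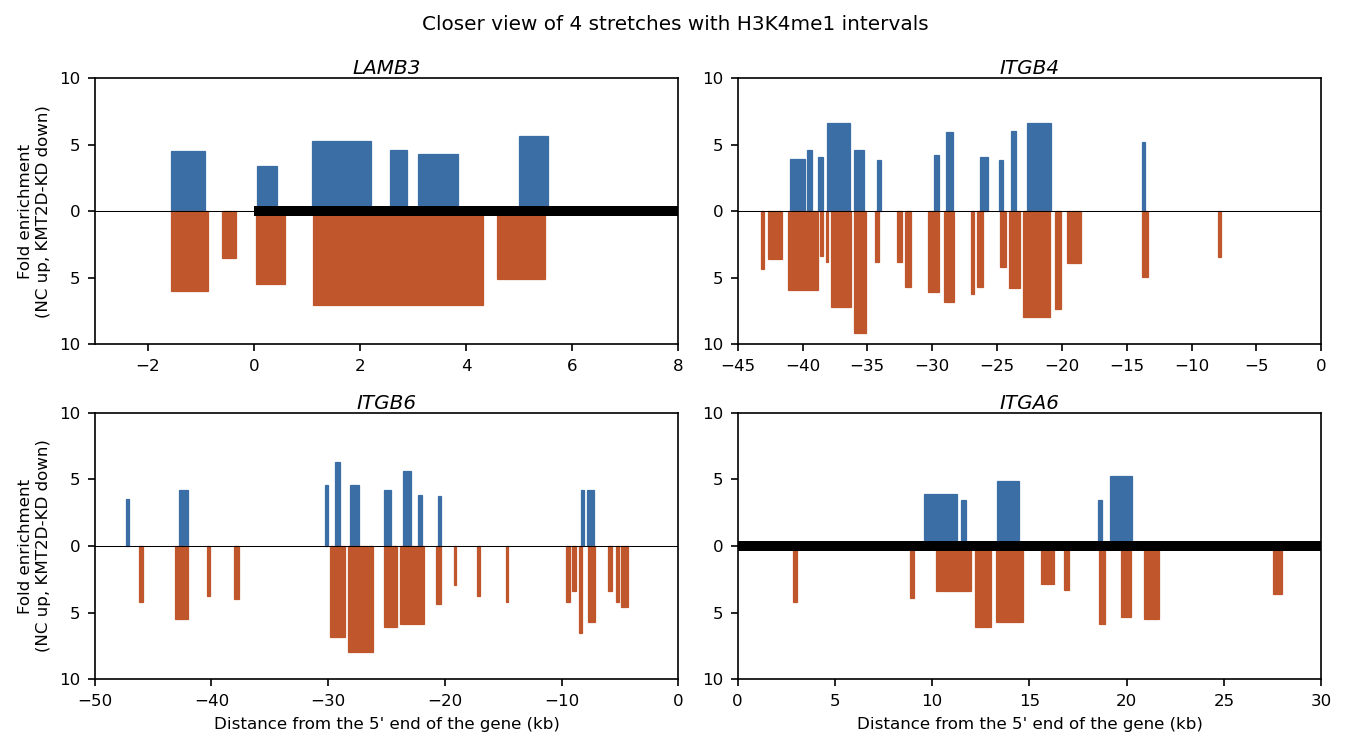
A closer view of 4 stretches, with distance from the 5′ end in kb (horizontal axis) and fold enrichment (vertical axis, NC upward in blue, KMT2D-KD downward in orange), each block being 1 interval drawn to its width. At LAMB3 the KMT2D-KD block of 3198 bases faces 3 NC blocks, and at ITGB6 and ITGB4 wide KMT2D-KD blocks face narrower NC blocks upstream of the gene.

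LAMB3 was also the member with the most H3K4me1 at its start. It had 2 NC and 3 KMT2D-KD promoter intervals, and an interval of each list overlapped an annotated start. The one in intron 1 read 3.38-fold with 9 fragments in NC and 5.47-fold with 14 fragments in KMT2D-KD. Over the 9 members, 2 had a promoter interval in NC (ITGB1 and LAMB3), against 6.43% of 20033 genes, and 3 had one in KMT2D-KD, against 11.9%. ITGA2 alone had one in KMT2D-KD and not in NC, against 7.50% of genes, and 0 members had one in NC and not in KMT2D-KD, against 2.06%. Most of the summits lay elsewhere, a share that has no all-gene value beside it. Within 5 kb of a 5′ end lay 16 of 112 NC summits (14.3%, 8.39% to 22.2%) and 18 of 167 KMT2D-KD summits (10.8%, 6.51% to 16.5%).

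By position, the upstream flanks were the densest part of the windows, with 10 intervals per 100 kb in NC and 15.3 in KMT2D-KD. Gene bodies held 5.86 and 8.62 and downstream flanks held 3.56 and 5.11 intervals per 100 kb. Over all protein-coding genes the corresponding upstream values were 3.05 and 4.83, with 2.84 and 4.07 in bodies and 2.88 and 4.71 downstream. Much of the upstream excess came from ITGB4 and ITGB6, with 24 of 45 NC and 40 of 69 KMT2D-KD upstream summits between them. First introns held 19 NC and 33 KMT2D-KD intervals, and exons held 0 and 2, and for NC the counting interval allows a share of up to 3.24% in exons. A further 11 NC and 14 KMT2D-KD summits, all at ITGB1, lay in the gene record outside the canonical transcript and were assigned no intron. These counts have no whole-list value beside them. Each of the 9 windows was denser than the median gene in both lists, from percentile 64.6 at LAMA3 to 96.9 at ITGB4 in NC.

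The shared and unshared intervals of the members were then compared. Of 112 NC intervals, 92 (82.1%, 73.8% to 88.7%) overlapped a KMT2D-KD interval by at least 1 base, against 69.7% over the whole NC list. Of 167 KMT2D-KD intervals, 83 (49.7%, 41.9% to 57.5%) overlapped an NC interval, against 46.6% over the whole KMT2D-KD list. The NC list value lay below the counting interval of the members and the KMT2D-KD list value lay inside it. The windows of the members were denser than the median gene, and the part of density in these shares was not tested. The 20 unshared NC intervals were weak, with a median −log10 q of 2.85 and 0 of them at 5 or more, and 13 of them lay within 1000 bases of a KMT2D-KD interval. The 84 unshared KMT2D-KD intervals had a median of 3.49, 12 of them reached 5, and 35 lay within 1000 bases of an NC interval. These values for unshared intervals have no whole-list value beside them, so they do not mark out the members. Unshared KMT2D-KD intervals outnumbered unshared NC intervals at 8 of 9 members, from 6 against 2 at ITGA2 to 15 against 1 at LAMA3 and 12 against 1 at ITGA3, and LAMB3 had 1 against 3. Of genes with at least 5 intervals in 1 condition, 88.6% had more unshared KMT2D-KD than unshared NC intervals, so the members were at the background.

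At the 92 NC intervals with a counterpart, the KMT2D-KD fold was higher at 71 (77.2%, against 69.1% over the list) and the KMT2D-KD interval was wider at 70 (76.1%, against 68.8%). The median log2 fold difference was 0.26, against 0.22 over the list. The 92 NC intervals faced 83 KMT2D-KD intervals, some counted more than once. At the 65 places with 1 interval in each list, KMT2D-KD was higher at 48 (73.8%) and wider at 46 (70.8%). Fold enrichment depends on the background of each list, which was at least 1.85 fragments in NC and at least 1.64 in KMT2D-KD, so at the lowest background the same number of fragments gives a higher fold in KMT2D-KD. Counted in fragments, KMT2D-KD had more at 62 places, the same number at 12 and fewer at 18, with medians of 12 and 15 fragments. Of the 71 places with a higher fold, 13 had no more fragments in KMT2D-KD than in NC.

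**Figure D5:**
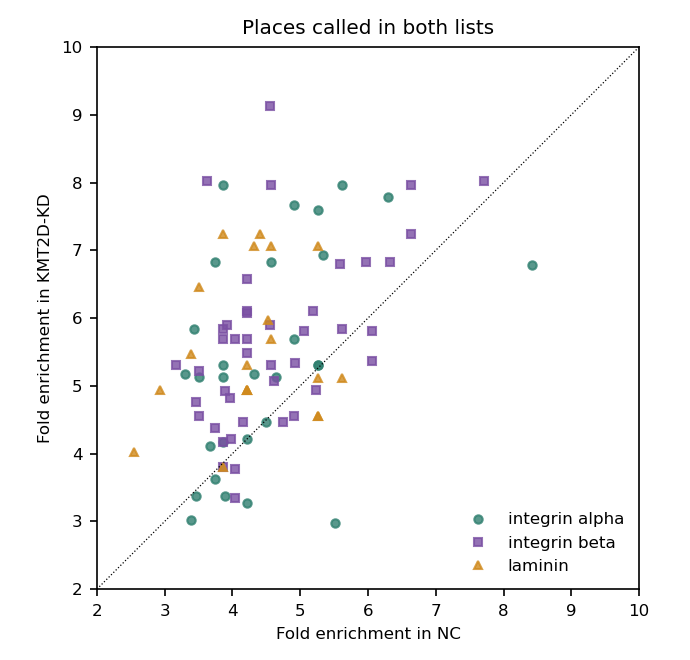
Fold enrichment in NC (horizontal axis) against KMT2D-KD (vertical axis) at the 92 NC intervals with a KMT2D-KD counterpart, by kind of gene, with equality as a dotted line. Points lie above the line at 71 places, and the point farthest to the right is the intron 3 site of ITGA3, which lies below it.

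The KMT2D-KD list also reached lower, to 7 fragments in these windows against 9 in NC, and 11 of its 167 intervals had fewer than 9. With only intervals of at least 12 fragments kept in both lists, a limit chosen after the data were seen, 64 NC and 92 KMT2D-KD intervals of the members were left (log2 ratio 0.52, 0.05 to 1.01), against 0.26 over the whole lists. Strong intervals differed more. A −log10 q of at least 5 was reached by 29 NC intervals (25.9%) and 68 KMT2D-KD intervals (40.7%), against 25.3% and 32.4% of the lists. This is a log2 ratio of 1.23 (0.58 to 1.91) for the members and 0.86 for the lists, so the list ratio lay inside the counting interval of the member ratio. That holds for the ratio alone. The shares of 25.9% and 40.7% are given without counting intervals and were not compared with the lists in this way.

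Intervals were wider in KMT2D-KD, with a median of 422 bases against 361 in NC, while the list medians were 375 and 369. A width of at least 1000 bases was reached by 13 NC (11.6%) and 29 KMT2D-KD intervals (17.4%), against 8.50% and 11.4% of the lists, and at least 2000 bases by 0 and 6. These width shares are given without counting intervals. Of the KMT2D-KD intervals, 12 of 167 (7.19%, 3.77% to 12.2%) overlapped more than 1 NC interval, against 4.96% over the list. Conversely, 4 of 112 NC intervals (3.57%, 0.982% to 8.89%) overlapped more than 1 KMT2D-KD interval, against 4.34%. Of those 12 KMT2D-KD intervals, 8 were wider than the summed widths of the NC intervals they overlapped and 4 were narrower.

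The 200 bases around each summit were searched on both strands for the core letters of 6 factor families. Those of AP-1 (TGANTCA), a FOS and JUN dimer, were in 7.14% of NC windows (8 of 112, 3.13% to 13.6%) and 7.19% of KMT2D-KD windows (12 of 167), against 8.06% and 7.78% over the lists. Those of TEAD (GGAATG), the partner of YAP, were in 8.04% and 10.8% of windows, against 12.4% and 12.1%. Those of GATA factors (AGATAA) were in 8.93% and 9.58%, against 13.0% and 11.5%. The RUNX letters (TGTGGTT) were in 3.57% and 4.19%, against 3.93% and 3.76%. The FOX letters (TGTTTAC) were in 2.68% and 2.40%, against 3.16% and 2.74%. Those of ETS factors (CCGGAAG) were in 0 of 112 windows, which allows a share of up to 3.24%, and in 1.20%, against 0.433% and 0.558%. For each of the 6 the list value lay inside the counting interval of the members. No excess of these motifs over the lists was thus detectable with this number of windows. The summit window upstream of ITGB4 that is printed above holds the ETS letters on the minus strand, and the LAMA3 window holds none of the 6.

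To place the members among related genes, the same windows were read for lists of the other integrins, other laminins and adhesion partners. Of genes with at least 5 intervals in 1 condition, 86.1% had more intervals in KMT2D-KD and 36.6% at least 2-fold more. The counts below of genes with more intervals also include genes under that number. Of 19 other integrin genes, 17 had more intervals in KMT2D-KD, 2 had equal numbers (ITGA4 with none, ITGB3 with 9), and 4 of the 15 with at least 5 intervals had at least 2-fold more. The most were at ITGB5, with 42 in NC and 51 in KMT2D-KD. Of 10 other laminin genes, 9 had more in KMT2D-KD and 2 had at least 2-fold more, and LAMC1 led with 17 and 24. Of 12 focal adhesion adaptors and kinases, which link integrins to actin, 11 had more in KMT2D-KD, and the exception was VCL with 47 and 45. Of the 11 with at least 5 intervals, 4 had at least 2-fold more in KMT2D-KD. Of 4 hemidesmosome partners, 2 had more in KMT2D-KD, led by DST with 73 and 79, while COL17A1 had 12 and 5 and CD151 had none. The median log2 ratio was 0.65 for the other integrins, 0.62 for the other laminins, 0.36 for the adaptors and 0.11 for the hemidesmosome partners. Beside these stood 0.65 for the members and 0.68 over the 10609 genes with a finite ratio.

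The lists for KMT2D and for EBF2, a transcription factor that was profiled in the same cells, held between 238 and 318 intervals each. None of the 4 lists had an interval in any member window, and the nearest lay 1.27 Mb from the 5′ end of a member gene. With lists of this size, an absence from 9 windows was a description of the called peaks and not of binding.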

How the data were processed

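ChIP-seq peak lists of 6 libraries were given, and the 2 H3K4me1 lists (NC and KMT2D-KD, 1 library each) were used, with the KMT2D and EBF2 lists for 1 count. Before deposit, the authors filtered reads with in-house scripts and aligned them with bwa. The submitters' processing notes name BWA, MACS2, HOMER and hg38, and versions and caller settings are not given in the sources used here. For every interval the deposited lists give a fold enrichment over input (a ratio), a −log10 p-value, a −log10 q-value and a score that is 10 times the −log10 q.

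Coordinates were counted from 1. Intervals were joined to GENCODE v44 genes with Python 3.11.15, pandas 2.3.3 and scipy 1.17.1. A window was the gene body with 50 kb on either side, an interval counted when it overlapped by 1 base, and was placed by its summit. Fragments at the summit were recovered by solving fold = (fragments + 1) / (background + 1) with the Poisson p-value, and came out whole within 0.001 in −log10 p for 64839 of 64843 and 92128 of 92135 intervals. Depth was the lowest background over the narrowest interval. Where a share is printed with an interval, it is the exact binomial (Clopper-Pearson) 95% interval, and ratios have an interval derived from it. With 1 library per condition no test was made. The interval arithmetic and the fragment recovery were checked on simulated data. The members and gene lists were chosen with earlier results of these data known. Named intervals were those with the highest −log10 q, overall and unshared, per member and list, and others were named after their values were seen. Alternatives for thresholds, windows, overlap and promoter definition were run. Some items of the lists and sequences are not reported here.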

Additional observations from a re-analysis of the deposited data

How the results depend on the processing

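Of 67 alternative values for the counts and shares over the members, 37 stayed near the reported value and 30 moved. Near means inside the counting interval for ratios and shares, and within 1.5 times for covered bases and counts. Only the log2 ratios of interval numbers and covered bases have a direction that could change, and 0 of them changed it. The cause of the moves was not tested for any alternative. The log2 ratio of interval numbers became 1.23 with a −log10 q limit of 5, 1.33 with a fold limit of 5 and 0.18 with lists of equal length, and that of covered bases 1.54 with the q limit and 1.60 with the fold limit. The NC share found in KMT2D-KD became 89.7% at the q limit, 73.2% with 50% overlap and 93.8% within 1000 bases. The KMT2D-KD share found in NC became 38.2% at the q limit, 33.3% at the fold limit, 59.1% with equal numbers, 34.1% with 50% overlap and 70.7% within 1000 bases. Members with at least 2-fold more intervals in KMT2D-KD, of those with at least 5 in 1 condition, numbered 5 of 7 at the q limit (55.4% of all such genes), 7 of 7 at the fold limit (60.8%), 0 of 9 with equal numbers (14.5%), 2 of 7 in gene bodies alone (30.2%), 2 of 7 with 10 kb flanks (33.9%), 4 of 9 with 100 kb flanks (34.6%), 0 of 8 with flanks ended at the next gene (31.5%) and 5 of 9 at a ratio of 1.5 (59.5%). With intervals within 1000 bases merged, 1 of 9 had at least 2-fold more in NC (0.799%). Of the 9 members, 0 had a promoter interval in NC at either limit (300 and 229 of 20033 genes) and 1 in KMT2D-KD (721 and 598). Within 3000 bases, 4 members had one in NC and 5 in KMT2D-KD (24.3% and 36.1%). At any transcript start the numbers were 3 in NC (17.4%) and 6 in KMT2D-KD (26.6%). At the canonical start, a definition chosen after the data were seen, they were 1 and 2, with no all-gene share beside them.

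For single genes, 64 of 69 alternative ratios stayed within their intervals and 5 moved. At LAMB3 the ratio changed direction, from −0.53 to 0.81 with the q limit and 1.81 with the fold limit. With lists of equal length it also did at ITGA2 (9 NC and 8 KMT2D-KD, −0.17) and ITGB1 (21 and 20, −0.07), and at ITGA6 it was 0 with nearby intervals merged. With only 6 to 27 intervals per gene and condition, counting error alone spans a wide range for each. No paired analysis was possible because each group had 1 library and no test was made.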

Other observations

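COL17A1, a transmembrane collagen of hemidesmosomes, was looked at together with LAMB3 after its values were seen. COL17A1 had 12 intervals over 4635 bases in NC and 5 over 6281 bases in KMT2D-KD. At both genes the number of intervals was lower and the covered bases were higher in KMT2D-KD, while LAMA3 had more of both. Over all genes with at least 5 intervals in 1 condition, a higher number in KMT2D-KD was found at 86.1%.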
